A study of Mus musculus with 16 samples.

Results

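Polyribosomal RNA was set against total RNA in neural stem cell (NSC) cultures of the Tsc2 wild type/wild type genotype, the controls of the study. The 8 control libraries among 16 came from 4 cultures, each of which gave 1 total RNA library and 1 polyribosomal RNA library. Libraries were paired by the culture number in their descriptions, and a gene was compared when its mean value was at least 10 in both tables, which held for 14081 of 24946 genes. The quantity reported is the recovery of a gene. It is log2(polyribosomal value + 1) minus log2(total value + 1) within a culture, from which the median of all genes in that culture was subtracted. A recovery of 0 is thus the level of the median gene, and a recovery of 1 is 2-fold above it.

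The cultures were grown from the V-SVZ, the ventricular-subventricular zone, where neural stem cells line the lateral ventricles of the mouse brain, and were passaged once in medium with epidermal growth factor and fibroblast growth factor. The other 8 libraries came from 4 cultures of the Tsc2 mutant/mutant genotype, in which a tamoxifen-inducible Cre recombinase driven by the Nestin promoter removes conditional Tsc2 alleles. Per the study's methods the pups carried a tdTomato reporter and were injected with tamoxifen about a week before dissection. The labels do not give Cre status, sex or age for a culture, and it is not clear whether the control pups carried Cre. All cultures, control and mutant, were held for 15 minutes in cycloheximide, an inhibitor that keeps ribosomes on the mRNA.

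An mRNA that is being translated carries several ribosomes at once, and such polyribosomes sink deeper in a sucrose gradient than single ribosomes or free RNA. The heavy 3 mL of a 17.5% to 50% gradient were taken as the polyribosomal sample. A transcript may be poorly recovered there because it has no ribosomes, because few fit on a short coding sequence, or because it stays in the nucleus, and the measurement does not tell these apart. Total RNA was taken from the whole homogenate. The rest was spun at low speed before the detergents were added and was then loaded onto the gradient. The study's methods do not say whether only the supernatant of that spin was loaded. If so, RNA held in nuclei or in heavy membranes was part of the total but not of the polyribosomal sample. The kinase complex mTORC1, which Tsc2 restrains, is known to promote translation of mRNAs that begin with a 5′ terminal oligopyrimidine (TOP) tract, among them those of all ribosomal proteins and several elongation factors.

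Values of the control total RNA libraries summed to between 73.1 and 73.7 M and those of the polyribosomal libraries to between 97.5 and 100.5 M. The value of 1 read put the depth at about 24.7 to 139 M reads for total and 52.3 to 268 M reads for polyribosomal RNA. Tsc2 itself, the targeted gene, lay at 6232 to 7836 in control and 5592 to 7076 in mutant total RNA, ranges that overlap, and at 10505 to 13165 in control and 5956 to 9339 in mutant polyribosomal RNA, which do not. The 10 NSC markers examined (Nes, Sox2, Vim and others) summed to between 745386 and 884383 per control total RNA library, 4 oligodendrocyte markers to between 1638 and 2018, 6 neuroblast and neuron markers to between 1267 and 1508, 6 microglia markers to between 895 and 1423 and 3 red blood cell markers to between 0 and 2.99. No astrocyte set was summed, so these sums do not tell NSCs from astrocytes. Of the astrocyte genes, Aldh1l1 had a mean of 50035 and Aqp4 one of 1705 in control total RNA. Control culture 1 stood somewhat apart. Its recoveries correlated with those of the others at Pearson coefficients of 0.848 to 0.872 across genes, against 0.909 to 0.925 among cultures 2, 3 and 4.

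Recovery was spread widely over genes and was close between cultures. The SD of the mean recovery over genes was 0.98, whereas the median SD of a gene over its 4 cultures was 0.20, and 11047 genes (78.5%) lay on the same side of the median gene in all 4 cultures. In all 4 cultures 1918 genes (13.6%) lay at least 2-fold above the median gene, and 1348 (9.57%) at least 2-fold below it. These shares are the background against which every group of genes is read. The tables of total and polyribosomal RNA were normalized separately, so no test was made across them, and with 4 cultures the smallest two-sided p of an exact sign-flip test would be 0.125. The zero also depends on the scaling. The level set by the column totals lay 0.58 to 0.67 above the median gene, and relative to it 229 genes were 2-fold above and 3465 were 2-fold below. The median gene is used throughout as the reference.

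**Figure D1:**
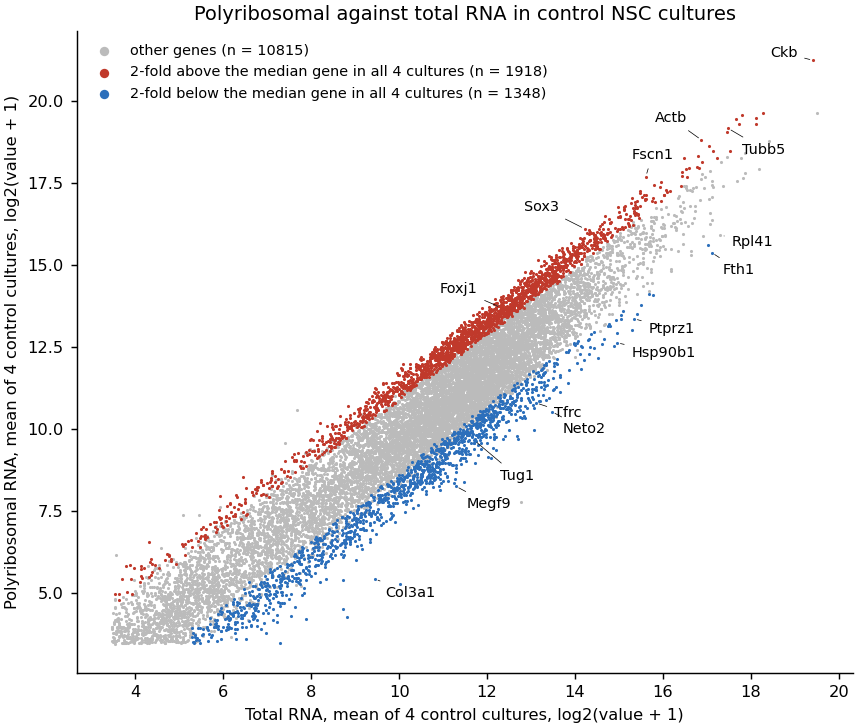
Mean value of each of 14081 genes in polyribosomal RNA (vertical axis) against total RNA (horizontal axis) of 4 control cultures, both as log2(value + 1). Red points are the 1918 genes at least 2-fold above the median gene in all 4 cultures and blue points the 1348 genes at least 2-fold below it, and both kinds occur from low to high levels of total RNA.

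Genes with the highest recovery included those for cytoskeletal, nuclear RNA-binding and metabolic proteins. Fscn1, which encodes the actin-bundling protein fascin (chr5:142960343-142973185, plus strand, GRCm38), headed the list. Its total RNA values were 55689, 48219, 45695 and 50515 in control cultures 1 to 4 and its polyribosomal values 218223, 209582, 209641 and 206705. The 2 sets of values did not overlap, although their tables were normalized separately. The recovery was 2.26 ± 0.07 (SD, n = 4), which is 4.80-fold the median gene. Actb, which encodes beta-actin (chr5:142903115-142906754, minus strand), had total values of 117807, 125883, 123297 and 114746 and polyribosomal values of 454274, 491422, 443895 and 444616. Its recovery was 2.11 ± 0.07. The transcription factor gene Sox3, which is active in neural progenitors, had total values of 19840, 20272, 16089 and 20456 and polyribosomal values of 72231, 78285, 60319 and 69615, a recovery of 2.05 ± 0.07. Trp53, which encodes the tumour suppressor p53, lay at 2.03 ± 0.15.

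The rest of the 12 highest protein-coding genes with means of at least 100 in both tables were the splicing corepressor gene Raver1 (2.18 ± 0.25), Rbm14 (2.08 ± 0.11), the beta-tubulin gene Tubb4a (2.07 ± 0.22), Acy3 (2.05 ± 0.09), Vat1 (2.02 ± 0.11), Ncdn (2.01 ± 0.12), Coro2b (2.00 ± 0.18) and the focal adhesion gene Parvb (2.00 ± 0.10). The coding sequences of the 12 held 54.7% to 73.0% G and C, and 2 of the 12 encode a hydrophobic stretch as defined further on. Ckb, the brain-type creatine kinase gene, was at once among the most abundant and the best recovered. It rose from 652861, 699425, 739105 and 718864 in total RNA to 2083210, 2452180, 2693470 and 2620400 in polyribosomal RNA, a recovery of 1.99 ± 0.07.

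**Figure D2:**
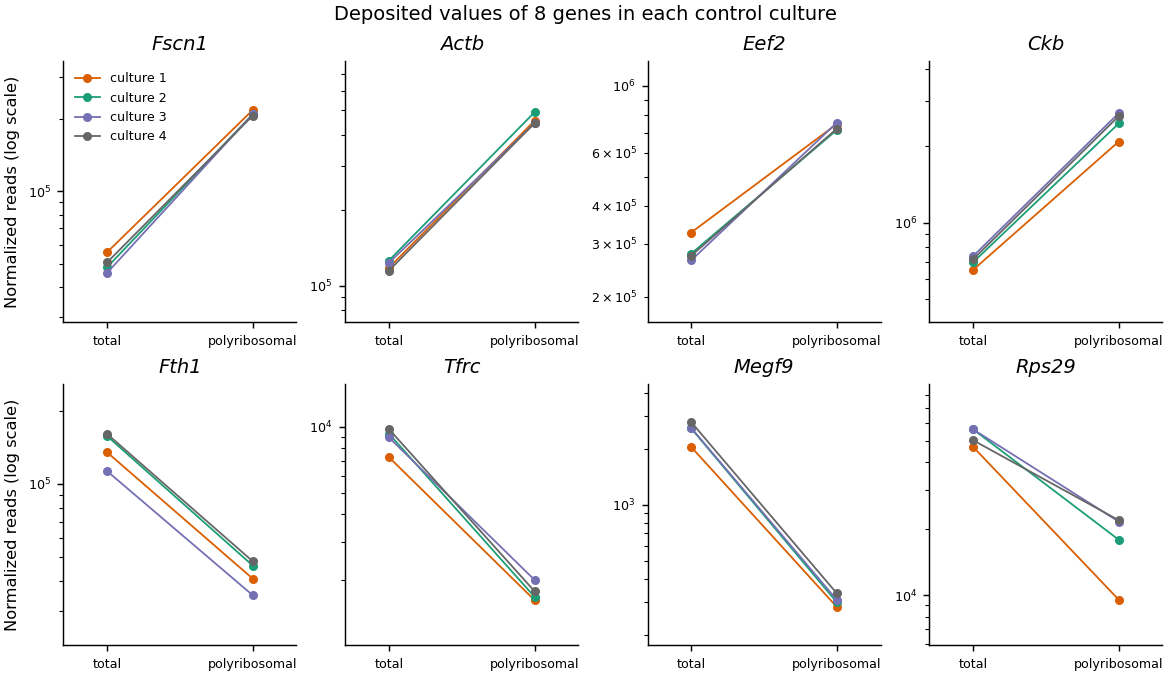
Deposited normalized reads of 8 genes in total and polyribosomal RNA (log scale), 1 line for each of the 4 control cultures. Fscn1, Actb, Eef2 and Ckb were higher and Fth1, Tfrc, Megf9 and Rps29 lower in polyribosomal than in total RNA in every culture, and culture 1 is the lowest polyribosomal value of Rps29.

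Of the 12 protein-coding genes with the lowest recovery 10 encode a protein with a stretch hydrophobic enough to span a membrane. Megf9, which encodes a transmembrane protein with epidermal growth factor-like repeats (chr4:70427065-70534995, minus strand), had total values of 2042, 2572, 2586 and 2778 and polyribosomal values of 282, 298, 307 and 333. Its recovery was -2.84 ± 0.14, or 0.140 of the median gene. Neto2, whose product is an auxiliary subunit of kainate receptors, had total values of 8878, 12018, 13316 and 11272 and polyribosomal values of 1342, 1395, 1642 and 1528, a recovery of -2.75 ± 0.20. For both genes every polyribosomal value lay below every total value, on scales that were normalized separately.

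Tmem184c was the lowest of all protein-coding genes with means of at least 100, at -2.87 ± 0.43. Others of the 12 lowest were Fam171b (-2.78 ± 0.25), Selenop (-2.71 ± 0.17), Mmgt1 (-2.70 ± 0.19), Ergic2 (-2.69 ± 0.16), the zinc transporter gene Slc30a4 (-2.68 ± 0.27), the mitochondrial RNA-binding gene Fastkd2 (-2.62 ± 0.37), the sorting nexin gene Snx13 (-2.61 ± 0.33) and the leucine-rich repeat gene Lrrn3 (-2.55 ± 0.17). The stretch was absent by the measure given next from Fastkd2 and from Selenop, which encodes a secreted selenoprotein. Coding G and C content ran from 39.7% to 54.5%.

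Translation of membrane and secreted proteins takes place on ribosomes bound to the endoplasmic reticulum, which are directed there by a hydrophobic segment of the nascent chain. Such a segment was scored as a window of 19 residues with a mean Kyte-Doolittle hydropathy of at least 1.6 in the protein translated from the GENCODE M21 coding sequence. The 4594 genes with a stretch had a median recovery of -0.40, with 6.36% of them 2-fold above and 18.2% 2-fold below the median gene. The 8783 genes without one had a median of 0.27, with 18.3% above and 4.92% below. In culture 1 the medians with and without were -0.55 and 0.36, and in culture 3 they were -0.29 and 0.21. The part in this difference of the low-speed spin that came before the detergents was not tested.

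Base composition moved with recovery as well. Across 13397 genes with an annotated coding sequence the Spearman coefficient of mean recovery was 0.57 with the G and C content of the transcript, 0.50 with that of the coding sequence and 0.48 with that of the 3′ UTR, but 0.10 with that of the 5′ UTR. For the coding sequence it was 0.32, 0.54, 0.57 and 0.51 in cultures 1 to 4. Genes are not independent replicates, and these coefficients are descriptions. From the lowest to the highest of 5 equal groups by coding G and C content the median recovery went from -0.76 through -0.33, 0.10 and 0.47 to 0.62. The share of genes 2-fold above the median gene went from 0.336% to 26.3% and the share 2-fold below from 21.8% to 1.23%. Within the lowest group, genes with a hydrophobic stretch had a median of -1.25 and those without one -0.56, and within the highest 0.15 and 0.93. Differences in amplification between libraries by base composition were not tested. Where recoveries were taken relative to genes of like transcript composition, a setting added after the data had been seen, 757 protein-coding genes were 2-fold above and 847 were 2-fold below in all 4 cultures. Of these, 410 and 510 were also called without it, so the correction both removed and added genes.

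**Figure D3:**
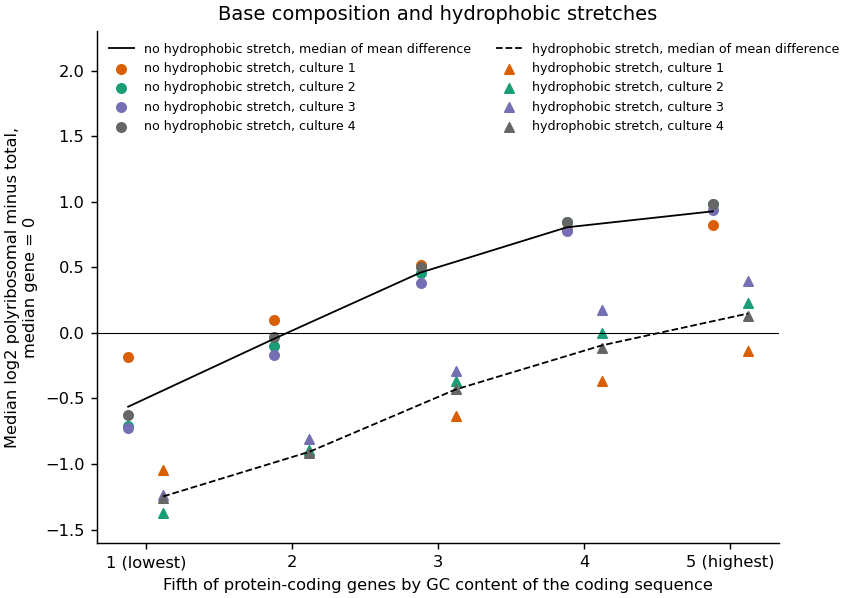
Median recovery (vertical axis, log2, median gene at 0) of protein-coding genes in 5 equal groups of coding-sequence G and C content (horizontal axis), for genes whose protein has a hydrophobic stretch (triangles, dashed line) or none (circles, solid line). Points are the 4 control cultures. The line without a stretch runs from -0.56 to 0.93 and the line with one from -1.25 to 0.15, and culture 1 has the flattest slope.

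Coding length had a weak relation with recovery over all genes, with a Spearman coefficient of -0.11 that ranged from -0.06 in culture 3 to -0.18 in culture 4. The relation was not monotonic. The shortest genes, up to 750 nucleotides, had a median recovery of -0.01, the next group 0.29 and the longest genes, from 2523 nucleotides, -0.35. In the group with the lowest coding G and C content the longest genes had a median of -1.02 and the shortest -0.31, and in the highest group 0.78 and 0.18. Long 3′ UTRs went with low recovery, with a coefficient of -0.23 that became -0.01 relative to genes of like composition.

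The ribosomal protein genes were close to the median gene as a group, and within it recovery went with coding length. The 48 large subunit genes had a median recovery of 0.20 and the 33 small subunit genes one of 0.07, both of which lie below the level set by the column totals, at -0.41 and -0.55. In all 4 cultures Rpl8, Rpl15 and Rpl10 were 2-fold above the median gene and Rpl39 and Rps29 were 2-fold below it, so 3 of 81 were above and 2 below. Both shares are under those of all genes, 13.6% above and 9.57% below. Rpl8 had total values of 146786, 151115, 145965 and 136355 and polyribosomal values of 372187, 391956, 358225 and 346359, a recovery of 1.52 ± 0.05. Rps29 had total values of 46784, 56154, 56134 and 50121 and polyribosomal values of 9537, 17803, 21496 and 21814, a recovery of -1.45 ± 0.46. Its polyribosomal value in culture 1 was far below the other 3.

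Coding length ran from 78 nucleotides for Rpl41, the shortest of the ribosomal protein genes, to 1260. Mean recovery had a Spearman coefficient of 0.79 with coding length over the 81 genes, and of 0.82, 0.74, 0.73 and 0.71 in cultures 1 to 4. The 10 genes with fewer than 300 coding nucleotides had a median of -1.02, and the other 71 had one of 0.21. Rpl41 was at -1.32 ± 0.63, Rpl39 (156 nucleotides) at -1.42 ± 0.37, Rps29 (171) at -1.45 ± 0.46 and Rps28 (210) at -1.04 ± 0.38. At the other end lay Rps9 (585 nucleotides) at 1.01 ± 0.14 and Rpl10 (645) at 1.19 ± 0.23. Rpl23, near the median of the large subunit genes, was at 0.19 ± 0.16. Rps12, at -1.05 ± 0.25 with 399 nucleotides, lay below others of its length. All 263 genes with under 300 coding nucleotides had a median recovery of -0.53. Ribosomal protein genes have many processed copies in the genome, so reads may have been split between a gene and its copies.

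**Figure D4:**
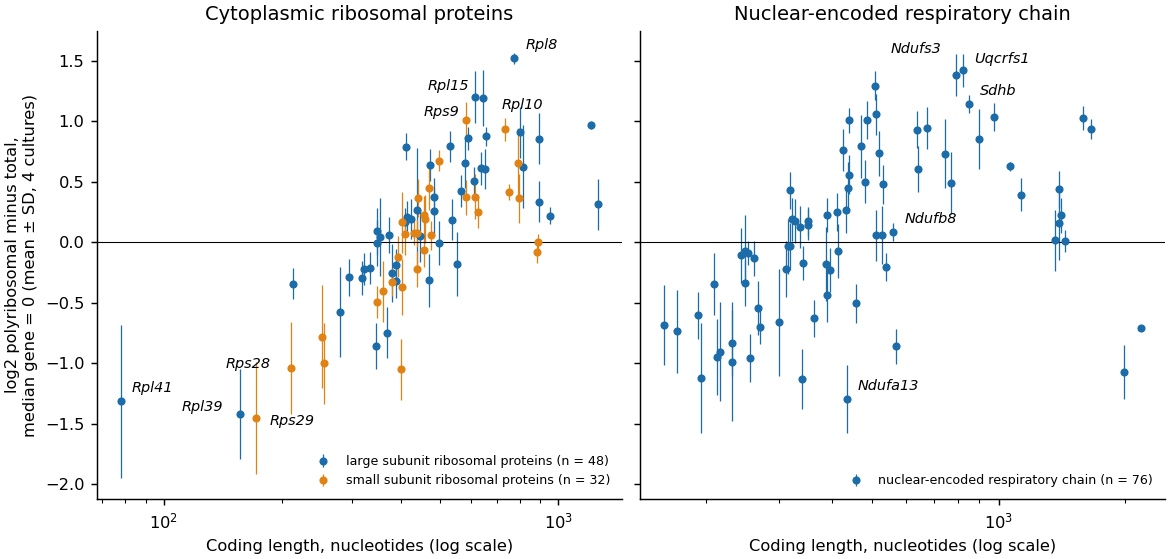
Mean recovery (vertical axis, log2, median gene at 0, bars are SD over 4 control cultures) against coding length in nucleotides (log scale) for cytoplasmic ribosomal protein genes (left) and nuclear-encoded respiratory chain genes (right). On the left recovery is lowest for the shortest genes, Rpl41, Rpl39 and Rps29, and Rps27 (SD 3.23) is left out of the plot. On the right it is lowest for Ndufa13 (-1.30), which has 435 coding nucleotides.

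Other TOP mRNAs had a higher median than the ribosomal protein mRNAs. The 18 compared lay at 0.69, with 3 above, a share near the 13.6% of all genes, and none below. Eef2, which encodes the elongation factor that moves the ribosome along the mRNA, had total values of 326403, 277727, 263964 and 273491 and polyribosomal values of 747711, 714628, 755541 and 721623, a recovery of 1.55 ± 0.11. Eef1d was at 1.41 ± 0.07 and Rack1, which encodes a protein of the small ribosomal subunit, at 1.31 ± 0.07. Eif3f (1.04 ± 0.18) and Naca (0.62 ± 0.25) were nearer to the median. Pabpc1, which encodes the cytoplasmic poly(A)-binding protein, lay on the opposite side of the median gene. It had total values of 55911, 50908, 55143 and 49662 and polyribosomal values of 26663, 16082, 18233 and 14084, a recovery of -1.35 ± 0.35.

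Genes that build, charge and assemble the translation apparatus had list medians above the median gene, with members on both sides of it. By mean recovery 26 of 39 initiation factor genes, 14 of 23 synthetase genes and 26 of 41 ribosome assembly genes lay above it. The lowest members of these lists were at -1.15, -1.10 and -1.15. Of 39 initiation factor genes 11 were 2-fold above and none below, with a median of 0.48. Eif6, which encodes a factor that keeps ribosomal subunits apart, was at 1.77 ± 0.10, Eif4a3 at 1.62 ± 0.14, Eif2b2, which encodes a subunit of the exchange factor for eIF2, at 1.62 ± 0.10 and Eif2b3, the member nearest the median, at 0.48 ± 0.13. Of 23 aminoacyl-tRNA synthetase genes 7 were above and none below (median 0.57), led by Farsa (1.82 ± 0.13) and Sars (1.62 ± 0.04). Of 41 ribosome assembly genes 15 were above and none below (median 0.77), among them Bop1 (1.92 ± 0.04) and the methyltransferase gene Fbl (1.81 ± 0.12). Relative to the column totals the medians were -0.13 for initiation factors, -0.04 for synthetases and 0.16 for ribosome assembly, so only the last kept its sign. Relative to genes of like composition 3 initiation factor genes, 4 synthetase genes and 7 ribosome assembly genes were above.

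The nuclear genes for mitochondrial proteins were taken as 2 lists. The 77 mitochondrial ribosomal protein genes had a median of 0.57, and -0.04 relative to the column totals. Of these 7 were above, a share under the 13.6% of all genes, and none was below. Mrpl4 was at 1.62 ± 0.06 and Mrpl20 at 0.57 ± 0.20. The 76 nuclear-encoded respiratory chain genes had a median of 0.07, and -0.54 relative to the column totals. Uqcrfs1, the iron-sulfur protein of complex III (1.42 ± 0.14), Ndufs3 of complex I (1.38 ± 0.18), Atp5d of the ATP synthase (1.29 ± 0.12) and Sdhb of complex II (1.15 ± 0.07) were above in all 4 cultures, and Ndufa13 of complex I was below (-1.30 ± 0.28). Both shares of the 76 are under those of all genes, 13.6% above and 9.57% below. Ndufb8 (0.08 ± 0.07) lay nearest the median of the list. The coefficient with coding length was 0.58 over these 76 genes.

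Proteasome and tubulin genes were called above, 15 of 31 and 12 of 12, against 13.6% of all genes. Of 31 proteasome genes 15 were 2-fold above and none below, and the median was 1.11. Psmb2, a core subunit, was at 1.63 ± 0.25, the ATPase subunit Psmc4 at 1.58 ± 0.07 and Psma7 at 1.11 ± 0.12. The 8 genes of the chaperonin CCT, which folds actin and tubulin, all lay above the median gene on average (median 0.76, and 0.15 relative to the column totals). Cct7 alone was above in all 4 cultures, at 1.57 ± 0.02, which as 1 of 8 is near the share of all genes, and Cct5 was at 0.80 ± 0.14. All 12 tubulin genes were 2-fold above the median gene in all 4 cultures, with a median of 1.74. Tubb5 had total values of 186464, 177852, 205194 and 161269 and polyribosomal values of 644521, 562127, 629002 and 515440, a recovery of 1.87 ± 0.10. Tubb3 was at 1.93 ± 0.10 and Tuba1a at 1.78 ± 0.08. Tubulin genes are similar in sequence, so their reads are not fully separate, and relative to genes of like composition 5 of the 12 stayed above, with a median of 1.06.

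**Figure D5:**
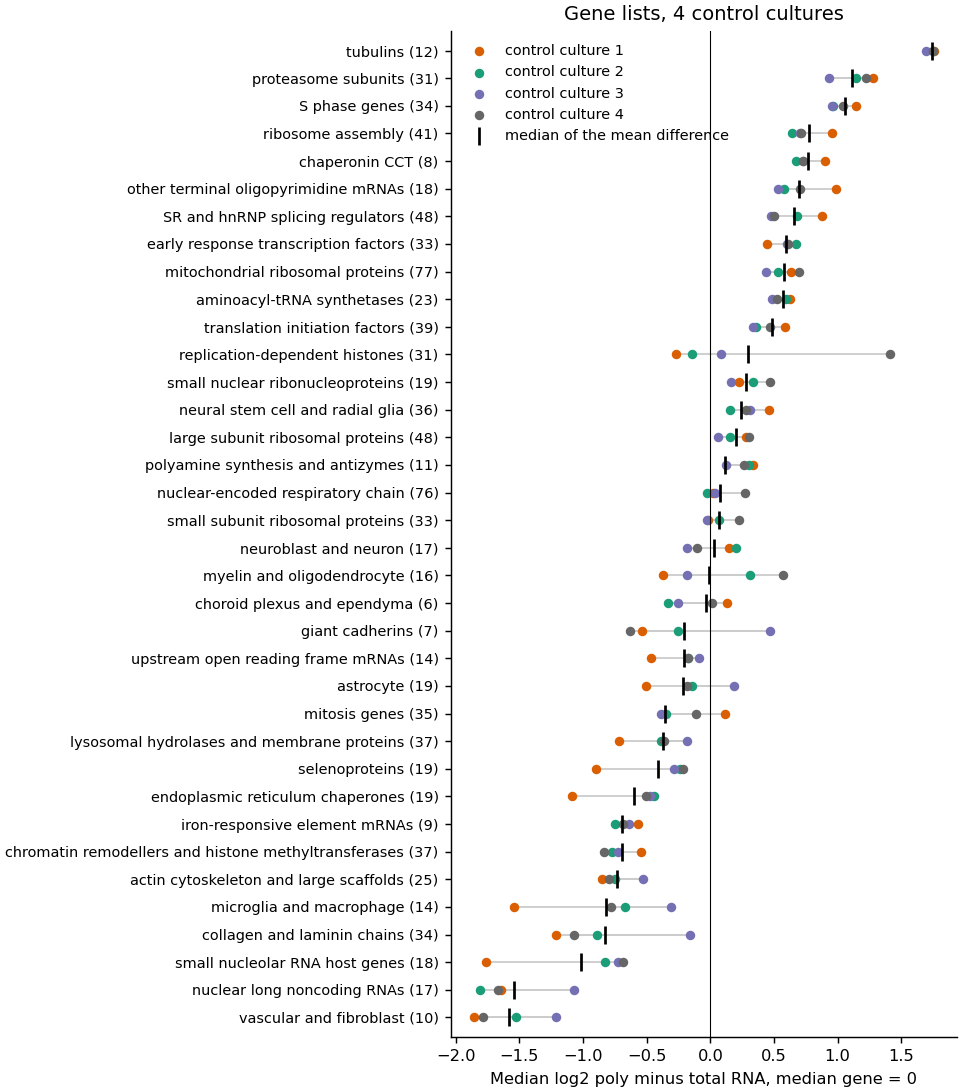
Median recovery (horizontal axis, log2, median gene at 0) of 36 gene lists, with the number of members compared in brackets. Coloured points are the medians in each of the 4 control cultures and black bars the medians of the mean recovery, which run from 1.74 for tubulins to -1.58 for vascular and fibroblast genes.

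Of 48 SR and hnRNP splicing genes and their kinases 13 were above and 2 below, with a median of 0.65. The 2 below are a smaller share than the 9.57% of all genes. Relative to genes of like composition 20 were above and none below. Hnrnpa0 was at 1.99 ± 0.26, the polypyrimidine tract-binding gene Ptbp1 at 1.77 ± 0.11 and Srsf1 at 0.66 ± 0.15. The 2 genes below without that correction were Clk1 (-1.97 ± 0.20) and Clk4 (-1.38 ± 0.05). They encode kinases of SR proteins and are known for transcripts that keep introns in the nucleus. Of 19 small nuclear ribonucleoprotein genes Snrpa (1.90 ± 0.08) and Snrpb (1.83 ± 0.04) were above, a share under the 13.6% of all genes, and none below. The 37 chromatin remodeller and histone methyltransferase genes, which are long, had a median of -0.70, with 6 below and none above. Chd6 was at -1.84 ± 0.12, Kmt2a at -1.69 ± 0.23 and Kdm5b at -0.70 ± 0.08.

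Long noncoding RNAs had a median below the median gene. The 477 compared, which lack a long coding sequence, had a median recovery of -0.53, with 0.629% of them 2-fold above and 12.4% 2-fold below. The shares of all genes were 13.6% above and 9.57% below, so the class differed mainly in its few calls above. In culture 4 the median was -0.36 and in culture 1 it was -0.65. Of 17 RNAs listed as nuclear, 7 were below and none above, with a median of -1.54. Firre, which organizes chromatin from the X chromosome, had total values of 965, 838, 872 and 901 and polyribosomal values of 127, 174, 228 and 160, a recovery of -2.22 ± 0.39. Lower still were Rian (-3.14 ± 1.01), Mir17hg (-3.08 ± 0.46) and Snhg14 (-3.03 ± 1.10), all with polyribosomal means under 20.

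Sox2ot (-1.85 ± 0.22), Ftx (-1.92 ± 0.27) and Kcnq1ot1 (-1.59 ± 0.38) made up the remaining nuclear RNAs called, and Jpx, at the list's median, was at -1.54 ± 0.63. Peg13 (0.94 ± 0.12) and Mir9-3hg (0.26 ± 0.09) lay above the median gene on average, both named after their values were seen. Among all RNAs annotated as noncoding with means of at least 100, 15 were below in all 4 cultures, with 1700020I14Rik (-2.41 ± 0.17), Ttc39aos1 (-2.03 ± 0.21) and 2900097C17Rik (-1.87 ± 0.40) among the 6 lowest. Tug1, another of the 6, had total values of 2541, 3619, 3978 and 3251 and polyribosomal values of 858, 723, 840 and 798, a recovery of -1.86 ± 0.37. Every polyribosomal value of Tug1 lay below every total value, on scales that were normalized separately. Fam219aos (1.59 ± 0.37), 9530082P21Rik (1.53 ± 0.20) and Gt(ROSA)26Sor (1.42 ± 0.27) were the 3 that lay above. Without strand information, reads of an antisense RNA cannot be told from those of its partner, and Gt(ROSA)26Sor is the locus that carries the tdTomato reporter in these mice.

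The host genes of small nucleolar RNAs, which are spliced, exported and then degraded, had a median of -1.02 over 18 members, none of which was above. Snhg9 (-1.82 ± 0.37), Snhg6 (-1.51 ± 0.52) and Snhg20 (-1.51 ± 0.45) were below in all 4 cultures. Snhg6 had total values of 2986, 3784, 2243 and 3104 and polyribosomal values of 558, 1095, 859 and 1355. The list median was -1.76 in culture 1 and -0.82, -0.72 and -0.69 in cultures 2 to 4, and Snhg15, at -0.96 ± 0.56, went with that split.

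Iron-regulated mRNAs were recovered below the median gene, with the exception of Epas1. When iron is scarce, iron regulatory proteins bind a stem-loop, the iron-responsive element. In a 5′ UTR this blocks ribosome entry, and in the 3′ UTR of the transferrin receptor mRNA it protects the transcript from decay. The loops are shown because they are the feature that groups these genes. Capitals mark the match to CNNNNNCAGTGN, whose letters stand for the bulged C, the 5′ side of the upper stem and the loop, within the RNA-like strand of GENCODE M21 transcripts (GRCm38), and the remaining letters are the flanks.
Fth1, 5′ UTR: gtttcctgCTTCAACAGTGCttgaacgg
Ftl1, 5′ UTR: gtgtcttgCTTCAACAGTGTttgaacgg
Slc40a1, 5′ UTR: tccaacttCAGCTACAGTGTtagctaag
Epas1, 5′ UTR: cgtacaatCCTCGGCAGTGTcctgagac
Tfrc, 3′ UTR, site 1: ataattatCGGAAGCAGTGCcttccata
Tfrc, 3′ UTR, site 2: cacattatCGGGAGCAGTGTcttccata
Tfrc, 3′ UTR, site 4: gtctatatCGGAGACAGTGAtctccata
Tfrc, 3′ UTR, site 5: gtaattatCGGGAACAGTGTttcccata

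In every site shown except that of Epas1 the 5 bases before the loop pair with the 5 after it, G-U pairs allowed, and in Epas1 3 of 5 pair. The third of the 5 matches in Tfrc, with 2 of 5 pairs, is not shown. The letters of this motif alone are not specific, since 8.42% of 20590 annotated 5′ UTRs held at least 1 match on the transcribed strand. The 1125 compared genes with a 5′ UTR match had a median recovery of 0.09, against 0.02 for those without. At least 5 matches, as in Tfrc, were found in the sequence after the coding end of 0.594% of 21877 genes.

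Fth1, the ferritin heavy chain gene (chr19:9980598-9985098, plus strand), had total values of 134835, 157263, 112886 and 160399 and polyribosomal values of 40863, 46246, 34934 and 48142. Its recovery was -1.55 ± 0.05, with cultures between -1.61 and -1.50, so the polyribosomal level followed the total level closely from culture to culture. Ftl1, the light chain gene (chr7:45457944-45459884, minus strand), had total values of 137042, 142295, 132017 and 142564 and polyribosomal values of 79860, 78346, 75836 and 75139, a recovery of -0.66 ± 0.08. The 2 ferritin mRNAs thus had similar total levels and differed in recovery by more than the spread between cultures. Relative to genes of like composition they were at -1.95 and -1.48.

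Tfrc, the transferrin receptor gene (chr16:32608920-32632794, plus strand), had total values of 7277, 9307, 8953 and 9767 and polyribosomal values of 1628, 1685, 2012 and 1786, a recovery of -2.12 ± 0.19. It encodes a membrane protein with a coding G and C content of 41.6%, and relative to genes of like composition its recovery was -1.24. Slc40a1 (chr1:45908068-45926523, minus strand), which encodes the iron exporter ferroportin, was at -1.76 ± 0.67 with total values of only 32.1 to 54.6. Epas1 (chr17:86753700-86833410, plus strand), which encodes a hypoxia-inducible factor, was at 0.43 ± 0.20. Of the 9 listed genes Fth1, Tfrc and Slc40a1 were 2-fold below in all 4 cultures and none was above. Ftl1 and Epas1 are named beside the rule for the sake of their loops.

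Selenoprotein mRNAs, which decode a stop codon as selenocysteine, had a median of -0.41 over 19 members. Selenop, Selenot (-2.36 ± 0.08), Selenof (-2.17 ± 0.15), Dio2 (-1.88 ± 0.29) and Selenos (-1.20 ± 0.13) were below and the thioredoxin reductase gene Txnrd3 above (1.41 ± 0.12). Selenoh, nearest the median, was at -0.41 ± 0.33. The 10 members with a hydrophobic stretch had a median of -0.31 and the 9 without one -0.41. Of 14 genes known for upstream open reading frames, the transcription factor gene Cebpa (1.53 ± 0.10) was above and the p53 ligase gene Mdm2 (-1.20 ± 0.09) below, with a median of -0.21. Atf4, the effector of the integrated stress response, was at -0.13 ± 0.10, close to the median gene.

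Lists of the secretory pathway and matrix are read against the 9.57% of all genes called below, and the share of the lysosomal list lay near it. Of 19 endoplasmic reticulum chaperone genes 9 were below and none above (median -0.60), with Hsp90b1 at -2.15 ± 0.21, Hspa5, which encodes BiP, at -1.71 ± 0.19, Pdia3 at -1.51 ± 0.16 and Sdf2l1 at -0.60 ± 0.33. Relative to genes of like composition 3 of the 19 were below and none above. Of 37 lysosomal genes Lamp2 (-1.94 ± 0.10), Ctsc (-1.46 ± 0.14) and Lipa (-1.26 ± 0.18) were below and none above, and Laptm4b lay at -0.37 ± 0.12. Of 34 collagen and laminin genes 7 were below and none above (median -0.83). Col1a2 (-3.79 ± 1.11), Col3a1 (-3.71 ± 0.87) and Col1a1 (-2.92 ± 0.69) were among the lowest of all genes, and Col4a5 was at -0.76 ± 0.46. Col3a1 had total values of 1194, 578, 344 and 661 and polyribosomal values of 45.7, 33.1, 54.9 and 35.0. Summed markers of fibroblasts and pericytes went from 281 to 404 in total RNA to 31.7 to 59.5 in polyribosomal RNA, and their part in these values was not tested.

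The list of actin genes and large scaffolds held genes at both ends of the range. Actb and Actg1 (1.55 ± 0.08) were above, and 7 genes were below, among them the spectrin gene Sptbn1 (-2.25 ± 0.29), the spectraplakin gene Dst (-2.14 ± 0.25) and Iqgap1 (-2.10 ± 0.18). Sptan1, which encodes the partner of the beta-spectrins, was at -0.73 ± 0.14, the median of the 25. Of 7 giant cadherin genes Fat3 was below (-2.04 ± 0.15), Fat1 was at -1.46 ± 0.47 and Celsr3 at 0.20 ± 0.22.

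Genes of S phase and of mitosis had different medians. Of 34 S phase genes 13 were above and none below, with a median of 1.05, as for the polymerase gene Pold1 (1.91 ± 0.11), the helicase gene Mcm5 (1.81 ± 0.05), Tk1 (1.63 ± 0.10) and Prim2 (1.06 ± 0.17). Of 35 mitosis genes 7 were above and 2 below, with a median of -0.36, which became 0.15 relative to genes of like composition. The kinase gene Plk1 had total values of 15322, 12399, 14792 and 12088 and polyribosomal values of 44966, 36216, 41775 and 32647, a recovery of 1.69 ± 0.06, and Cdc20 was at 1.63 ± 0.05. Mki67, which encodes the proliferation marker Ki-67, had total values of 14823, 20181, 21093 and 16291 and polyribosomal values of 4593, 2835, 4304 and 2819, a recovery of -2.15 ± 0.51. Anln was at -1.96 ± 0.30 and Prc1 at -0.36 ± 0.15.

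Genes that define NSCs and glia were spread over the whole range. Of 36 NSC and radial glia genes 6 were above and 5 below (median 0.24, and -0.37 relative to the column totals). Both counts are near the shares of all genes, 13.6% above and 9.57% below. Those above included the transcription factor genes Sox3 and Sox10 (1.94 ± 0.15) and the RNA-binding gene Msi1 (1.71 ± 0.12), and those below were all membrane proteins, namely Prom1 (-2.26 ± 0.47), Ptprz1 (-1.82 ± 0.31), Pdgfra (-1.57 ± 0.22), the glutamate transporter gene Slc1a3 (-1.51 ± 0.13) and the growth factor receptor gene Egfr (-1.44 ± 0.12). The commonly used NSC markers Sox2 (0.80 ± 0.16), Vim (0.54 ± 0.05) and Nes (0.11 ± 0.36) lay in between, as did Msi2 (0.31 ± 0.16). The 15 members with a hydrophobic stretch had a median of -0.57 and the 21 without one 0.42.

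Of 19 astrocyte genes, the cytosolic enzymes Ckb, Aldoc (1.74 ± 0.05), Aldh1l1 (1.72 ± 0.14) and Glul (1.57 ± 0.04) and the filament gene Gfap (1.35 ± 0.09) were above. The water channel gene Aqp4 (-2.23 ± 0.19), the secreted protein gene Sparcl1 (-2.21 ± 0.30) and Acsl6 (-1.62 ± 0.13) were below, and the list median was -0.22. In the myelin and oligodendrocyte list Cnp (1.82 ± 0.03), Sirt2 (1.39 ± 0.04) and Nkx6-2 (1.23 ± 0.16) were above and the membrane protein genes Tspan2 (-2.28 ± 0.45) and Ugt8a (-1.71 ± 0.45) below. Among 17 neuroblast and neuron genes Tubb3 was above and Nrxn3 (-1.35 ± 0.36) below, and Dlx2, at 1.09 ± 0.10, passed the threshold in some but not all cultures.

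Foxj1, the regulator of motile cilia, was at 1.56 ± 0.02 and Aqp1 at -2.28 ± 0.48 among 6 choroid plexus and ependyma genes, of which no others were called. Vascular and fibroblast genes had a median of -1.58 over 10 members, with Acta2 above (1.44 ± 0.26) and 6 below, including Pdgfrb (-2.34 ± 0.60) and Flt1 (-1.59 ± 0.34). Col1a1, Col3a1 and Pdgfra, already described, are also on this list. Of 14 microglia genes Tyrobp was below (-1.69 ± 0.96) and none above, although Aif1 was at 1.11 ± 0.91. Total RNA levels of these non-neural markers were low, and 6 microglia markers summed to between 404 and 929 in polyribosomal RNA. Early response transcription factor genes had a median of 0.60 over 33 members, and of -0.02 relative to the column totals. Fosb (1.81 ± 0.12), Per1 (1.43 ± 0.17) and Jun (1.34 ± 0.12) were among 6 above, and none was below.

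The remaining lists had few calls. Of 11 genes of polyamine synthesis, the spermidine synthase gene Srm (1.50 ± 0.11) and the oxidase gene Paox (1.61 ± 0.08) were above and none below, with a list median of 0.11, and -0.50 relative to the column totals. None of 31 replication-dependent histone genes was called. Their median was 1.41 in culture 4 and -0.27, -0.15 and 0.09 in cultures 1 to 3, and these mRNAs normally end in a stem-loop rather than the poly(A) tail used to select RNA.

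Some genes had no stable recovery. Amd1 was listed at 0 in total RNA of cultures 1 to 3 and at 670 in culture 4, with polyribosomal values of 626 to 1096, while its near-identical copy Amd2 had total values of 7482 to 9861. Rps27 had total values of 2198, 29132, 1420 and 10665 and polyribosomal values of 369, 907, 7227 and 13365, and Npcd, Eif3j2 and BC002163 varied in like manner, with SDs of 3.78, 4.29 and 2.82. Reads of such genes may be divided between copies differently in each library, and their values are uncertain. Xist, which is made from the inactive X chromosome of female cells, had total values of 37.0, 3527, 68.9 and 24384 and polyribosomal values of 34.1, 120, 30.5 and 690. Its recovery was low in cultures 2 and 4, where its total RNA was high, and lay between -5.50 and -4.64 in the mutant cultures. The part of sex in differences between genotypes was not tested.

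Recovery in the Tsc2 mutant cultures, computed in the same way, allowed a test, because constants of the separate tables cancel when the difference between fractions is compared between genotypes. Of 14046 genes tested with limma 1862 (13.3%) differed at an adjusted p of 0.05, with 726 higher and 1136 lower in mutant cultures. The split was 709 higher and 700 lower without mutant culture 4, and 890 and 1067 when centred on the median gene, so the excess of lower calls rests in part on that culture and on the scaling. The 12 highest and 12 lowest genes described were chosen on the control recoveries that enter the test, and such a choice by itself favours differences toward the median gene. Among the 12 highest control genes Coro2b (log2 difference -0.51 ± 0.16, standard error, adjusted p = 0.043) and Parvb (-0.62 ± 0.14, adjusted p = 0.013) were lower in mutant cultures, and among the 12 lowest Tmem184c was higher (0.66 ± 0.19, adjusted p = 0.029). The count was 542 with ordinary moderation, which leaves out both the trend on mean level and the robust setting. It ran from 676 to 3275 when 1 culture was left out. Among these omissions it was lowest without mutant culture 1 and highest without control culture 1. Without the pairing of libraries by culture (no replicate block) 0 genes were called.

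The limma difference is on the uncentred scale, so it departs slightly from the difference of median-centred recoveries. The respiratory chain had the largest share of members called among the 36 lists, with 47 of 76 genes higher in mutant cultures and none lower. Its median recovery was 0.07 in control and 0.55 in mutant cultures. Ndufb8 (0.65 ± 0.12, limma adjusted p = 0.0065) and Sdhb (0.47 ± 0.11, adjusted p = 0.013) are examples. Of 77 mitochondrial ribosomal protein genes 27 were higher and none lower. Of the 81 cytoplasmic ribosomal protein genes 10 were higher and none lower, against 726 higher and 1136 lower of all 14046 genes. The 10 included the short, poorly recovered Rps29 (0.83 ± 0.19, limma adjusted p = 0.013) and Rpl39 (0.59 ± 0.17, limma adjusted p = 0.029). Eef2 was lower (-0.55 ± 0.12, adjusted p = 0.011), with a median-centred recovery of 1.55 in control and 1.03 in mutant cultures. Of 34 collagen and laminin genes 15 were lower and none higher. For the ferritin gene Fth1 the difference was 0.21 with an adjusted p of 0.26, and for Tubb5 it was 0.09 with an adjusted p of 0.64.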

How the data were processed

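Total and polyribosomal RNA of 4 control and 4 mutant NSC cultures were sequenced from unstranded poly(A)-selected libraries. The submitters' notes name STAR, the mm10 build and DESeq2. The deposited values are a signal, reads of each gene after scaling by the authors with DESeq2, in 1 table per fraction. Which program counted the reads, and on which gene models, the sources used here do not say. Low values lay within 0.1 of a multiple of the value of 1 read in 70.3% to 93.4% of cases per library, so depth was estimated and whole reads were not recovered. Rows whose names had become dates (26 of 24972) were left out. The value of a single read limits the precision of low genes, and depth differed between libraries.

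Recovery was computed with numpy 2.4.6 and pandas 2.3.3 in Python 3.11.15 with a pseudocount of 1, which understates differences of low genes. A gene was called when it lay beyond 1 or -1 in all 4 control cultures, with no test. Genotypes were compared with limma 3.58.1 in R 4.3.3 on within-culture differences, with a trend on mean level, robust moderation and Benjamini-Hochberg adjustment. Both were tested on simulated data. Total and polyribosomal libraries of a culture are paired by the culture number in the descriptions. Their deviations from the group means correlated at 0.24 to 0.49. Nothing ties a culture to an animal or litter, so the spread is that between cultures.

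Annotation, lengths, base composition and hydropathy came from GENCODE M21 (GRCm38, the same build as mm10), by symbol for 24522 of 24946 genes, 58 of them by an older symbol, with 1 transcript chosen per gene by complete coding sequence, APPRIS rank and length. The 37 gene lists and all choices were made with earlier results of these data known. Named genes are the 12 highest and 12 lowest protein-coding genes and the 6 lowest and 4 highest noncoding genes called, with means of at least 100 in both tables, up to 5 extreme members and the median member of each list, and the 6 genes with the largest SD. Not every gene that the rule selects is described, and a few are not reported here. Outside the rule, and after their values were seen, were named Acsl6, Acta2, Actg1, Clk4, Egfr, Ftx, Gfap, Glul, Kcnq1ot1, Nkx6-2, Pdgfra, Selenos and Slc1a3, to complete short counts, and the markers Nes, Sox2 and Vim. No member of the red blood cell list passed the filter. Alternatives were other pseudocounts, filters, centrings and moderation, unpaired comparisons, the omission of each culture and, added after the data had been seen, a correction by base composition.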

Additional observations from a re-analysis of the deposited data

Results flagged for a closer look

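In 15 of 231 sets of 4 control values a single culture lay apart from the other 3 by Dixon's criterion. The sets were 185 named genes, 36 list medians and 10 correlations with sequence features. The nominal rate of about 1 in 20 holds for independent sets. These sets overlap, and some genes were named for their large SD, so the count is not set against that rate. Selenoh has the median of the selenoprotein list in every culture and is counted beside it. Of the 15 sets, culture 1 stood apart in 9, culture 2 in 1, culture 3 in 2 and culture 4 in 3. In culture 1 the list median was -1.76 for small nucleolar RNA host genes (-0.82 to -0.69 in the others), -1.09 for endoplasmic reticulum chaperones (-0.51 to -0.44) and -0.90 for selenoproteins (-0.29 to -0.22). The genes set apart in culture 1 were Snhg15 (-1.80), Selenot (-2.24), Selenoh (-0.90), Sdf2l1 (-1.09), Prim2 (1.31) and Tyrobp (-3.12). Culture 3 had the lowest tubulin median, 1.69 against 1.75 in the others, and the highest value of Col4a5 (-0.087). Culture 4 stood apart for Ndufb8 (0.19), Epas1 (0.13) and Amd1 (0.28), and culture 2 for Npcd (7.73). The values of Amd1 and Npcd rest on total RNA listed at 0.

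Recovery of 31 of the 185 named genes differed between genotypes in the limma test of the difference, with adjusted p from 0.0060 to 0.050. Of all 14046 genes tested 13.3% differed. Many of the named genes were chosen for extreme control recoveries, which enter the test, so their share is not read as a result. Mutant minus control was positive at 1.06 for Snhg9, 0.96 for Snhg6, 0.80 for Snhg15, 0.55 for 1700020I14Rik, 0.66 for Tmem184c, 0.83 for Rps29, 0.59 for Rpl39, 0.55 for Rps28, 0.47 for Rps12, 0.56 for Ndufa13, 0.42 for Selenof and 0.71 for Selenoh. The others were Mrpl20 (0.57), Ndufb8 (0.65), Sdhb (0.47), Tk1 (0.42) and Atf4 (0.55).

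The difference was negative for Coro2b (-0.51), Parvb (-0.62), Eef2 (-0.55), Eif3f (-0.35), Epas1 (-0.54), Celsr3 (-0.78), Col4a5 (-0.99), Fosb (-0.85), Per1 (-0.68), Zfp36l1 (-0.70), Msi1 (-0.62), Peg13 (-0.54), Csf1r (-1.59) and Itgam (-2.25). Of genes low in control cultures, Itgam went from -1.45 to -3.66, Csf1r from -0.81 to -2.37 and Col4a5 from -0.76 to -1.73 in mutant cultures, further from the median gene. Csf1r and Itgam mark microglia, whose 6 markers summed to between 895 and 1423 per control total RNA library.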

How the results depend on the processing

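The counts of 1918 genes above and 1348 below the median gene stayed within 1.5 times under pseudocounts of 0.5 and 5, mean filters of 1 and 100, centring on abundant genes and the omission of any control culture. Without the pairing by culture (no replicate block: lowest polyribosomal against highest total library, or the reverse) they were 1347 and 939. They moved to 229 and 3465 when centred on the column totals, to 3396 and 2614 at 1.5-fold, and to 757 and 847 with the correction for base composition, which also tests protein-coding genes only. With 1 culture left out they ran from 1971 to 2115 above and from 1395 to 1860 below. The correlation with coding length was -0.11 and ran from -0.13 to -0.09 under every setting tried, including -0.12 without the pairing. For the difference between genotypes, limma called 1862 genes, 542 with ordinary moderation and 0 without the replicate block, where 2201 had an unadjusted p under 0.05, and 1378 with a block for the title number across genotypes. Leaving out a control culture gave 758 (without culture 3) to 3275 (without culture 1), with 844 without culture 2, and leaving out a mutant culture gave 676 (culture 1) to 1733. The cause of these differences was not tested. Of the 238 genes the naming rule selects, the mean recovery of all 238 moved by less than its SD with a pseudocount of 5 or without culture 1, 2 or 3, and that of 234 without culture 4. It moved by more for 173 with the composition correction, against 44 that did not, and for 215 with the column totals. No called gene changed sign under these settings. A call already requires a recovery beyond 1 or -1 in every control culture, however. Leaving out a culture, or the shift of 0.58 to 0.67 to the column totals, could therefore not change a sign. The depth of 24.7 M reads in 1 total RNA library limits genes near the filter most, and polyribosomal means under 20 rest on few reads.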
